A study of Mus musculus with 3 samples.

Results

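The stretch of mouse chromosome 3 that holds Sox2 and its distal downstream control region carried 18 listed Foxd3 peaks, 9 of the 3406 peaks precipitated through the HA tag and 9 of the 4569 precipitated through the Flag tag. They were taken as all peaks overlapping 34.5 to 34.7 Mb of chromosome 3 (mm9), a window of 200 kb. The window was chosen because peaks were already known to be listed there, so the members were chosen by their listed peak positions, and their number and clustering are given as a description. All samples came from 1 mouse embryonic stem cell line, FH-Foxd3 mESC, made from LF2 cells with a pTrip lentivirus that adds a Foxd3 carrying Flag and HA tags, and selected with neomycin. The tagged protein was present at close to the endogenous level, per the series' design text, and the labels do not say that the cells' own Foxd3 was removed. Cells were grown without feeders in KO-DMEM with 15% FBS and LIF. Chromatin from this line was precipitated with anti-HA in 1 library and with anti-Flag in another, and an input of total genomic DNA was also sequenced but not analysed here.

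Foxd3 is a forkhead transcription factor of pluripotent cells and of the neural crest. Sox2 encodes a high-mobility-group transcription factor that works with Oct4 to maintain pluripotency. In mouse embryonic stem cells Sox2 expression depends on a cluster of enhancers far downstream, often called the Sox2 control region, and loss of that cluster lowers Sox2 severely. Regulatory regions have also been described close to the gene on either side. Sox2 lies inside Sox2ot, a long noncoding RNA gene, in the RefSeq gene table, and its nearest protein-coding neighbours there are Dnajc19 on the low side and Atp11b on the high side. That table is on GRCm38.p6, so only gene order was taken from it.

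Each list gives peak positions alone, with no height, enrichment or read count, and the read depth is unknown. A peak missing from 1 list may have lain under that library's threshold. With 1 library per antibody, nothing here measures variation between cultures, and no test between conditions was possible. The labelled cell type could not be checked, since peak positions carry no expression values. Distances below run from a Sox2 start at about 34.549 Mb and a Sox2 end at about 34.551 Mb, both approximate mm9 positions, and are given to the nearest kb unless an interval between peaks is meant.

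Foxd3 was listed on both sides of Sox2 and far downstream of it, but not on the gene. Merging the 18 peaks gave 11 sites over 116 kb, of which 7 were in both lists, 2 came from HA only and 2 from Flag only. No peak of either list overlapped the interval from 34.549 to 34.551 Mb. The nearest peak upstream ended about 2 kb before the start, and the nearest downstream began about 2 kb past the end.

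**Figure D1:**
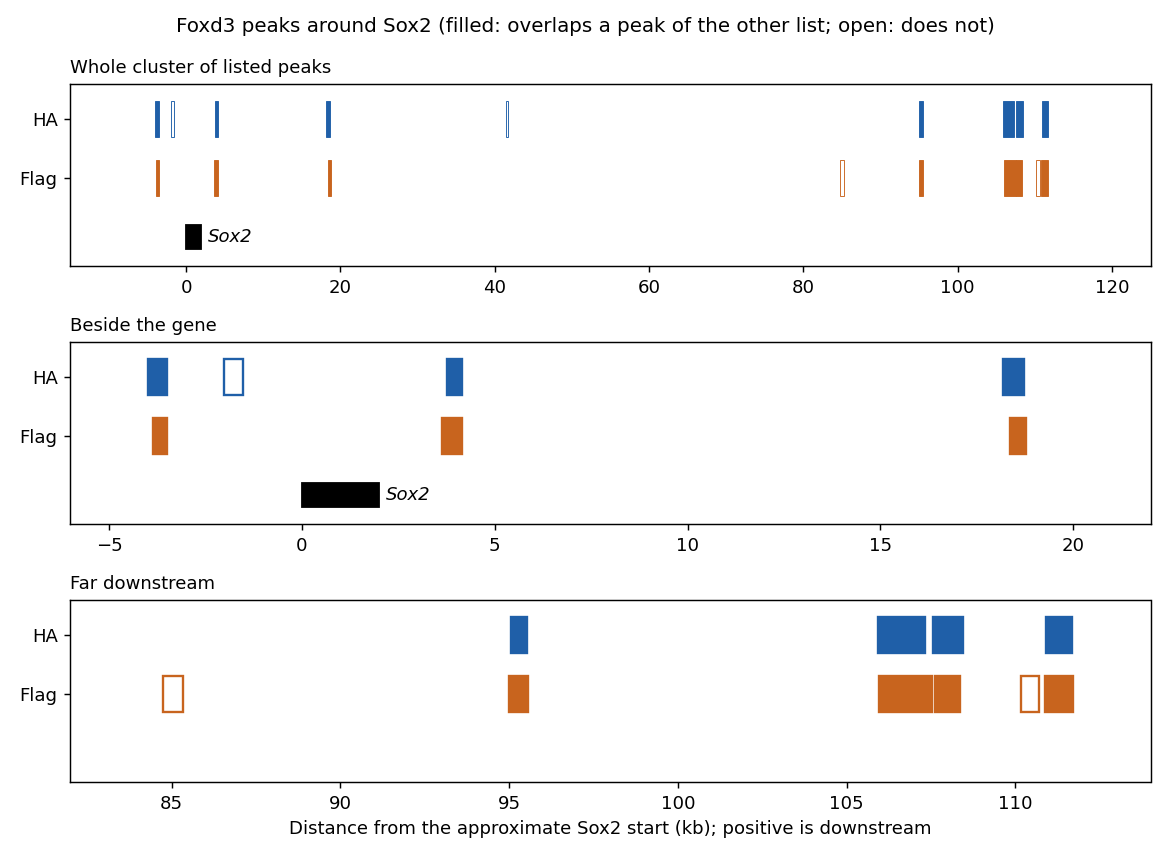
Position of every HA (blue) and Flag (orange) peak by distance in kb from the approximate Sox2 start, for the whole cluster and enlarged beside the gene and far downstream; boxes are drawn to scale along the axis, and filled boxes overlap a peak of the other list. No box lies over Sox2, 7 boxes in each list are filled, and the widest pair lies about 107 kb downstream.

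The sequence just before the Sox2 start is printed because it is the promoter that no listed peak covered. It is the RefSeq sequence of the 250 bases before the start on the plus strand, in GRCm38.p6, chr3:34649745-34649994. Capitals mark matches, on either strand, to a core letter pattern of the Sox family (ACAAAG) and to the CCAAT box (CCAAT).

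Sox2 promoter: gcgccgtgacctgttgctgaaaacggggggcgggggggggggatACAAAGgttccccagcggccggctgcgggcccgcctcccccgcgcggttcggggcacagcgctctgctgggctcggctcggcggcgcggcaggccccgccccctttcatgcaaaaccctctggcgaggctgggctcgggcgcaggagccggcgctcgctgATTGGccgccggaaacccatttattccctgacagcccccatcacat

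The Sox pattern began 206 bases before the start, and the reverse complement of the CCAAT box began 46 bases before it. These patterns do not overlap each other. Neither strand held a forkhead core pattern (TGTTTA) or an octamer (ATGCAAAT). Among 32851 RefSeq promoters cut to the same 250 bases, TGTTTA occurred in 12%, ATGCAAAT in 1.6%, ACAAAG in 16.5% and CCAAT in 33.8%. The Sox2 stretch was 72.0% G or C, against a median of 52.4% over all these promoters. The patterns were picked with the sequence in view, and a missing match says only that those letters are not in this window. The peaks' own sequences are not printed, because no mm9 genome was used here.

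Of the 9 HA peaks around Sox2, 7 overlapped a Flag peak by at least 1 bp, which is 77.8% (95% Wilson interval 45.3 to 93.7). Over the whole HA list 73.3% of peaks were shared, so the share around Sox2 was near the background. The same 7 overlapping pairs made 7 of the 9 Flag peaks shared, so also 77.8% (45.3 to 93.7), where 54.7% of all Flag peaks were. The interval, which covers counting error only and treats neighbouring peaks as independent, reaches below that background too. By length, 4444 of the 7373 bp covered by either list around Sox2 were covered by both, or 60.3%, against 39.4% over the whole lists. A share by length gives wide peaks more weight. The wide shared sites about 107, 108 and 111 kb downstream alone gave 1355, 735 and 782 bp of the common bases. This difference was not tested.

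Upstream of Sox2, one site was found with both antibodies. Its HA peak was chr3:34545007-34545515, 509 bp wide, and its Flag peak was chr3:34545153-34545500, 348 bp wide, both centred about 4 kb before the start. The Flag peak lay wholly inside the HA peak. A second HA peak, chr3:34546997-34547471, was 475 bp wide and centred about 2 kb before the start, closer to Sox2 than any other peak upstream. It had no Flag counterpart, the nearest Flag peak being 1496 bp away.

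Just downstream of the gene, about 4 kb from its start, both lists had a peak again. The HA peak was chr3:34552766-34553162, 397 bp wide, and the Flag peak chr3:34552644-34553140, 497 bp wide. Their common stretch was 375 bp, and here the Flag peak was the wider. About 18 kb downstream the HA peak chr3:34567186-34567717 (532 bp) met the Flag peak chr3:34567361-34567784 (424 bp) over 357 bp, the lowest overlap of the 7 pairs relative to the shorter peak (84.2%). The last peak of this stretch, chr3:34590492-34590746, was in the HA list alone, about 42 kb downstream. At 255 bp it was the narrowest of the 18 peaks, ranking 3373 of 3406 HA peaks by width, and no Flag peak lay within 22707 bp of it.

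A stretch of 43.0 kb without any listed peak separated these sites from the distal ones, the longest such gap between sites of the window. The distal sites held most of the sequence covered around Sox2. Past 50 kb downstream lay 4 of the 9 HA peaks and 6 of the 9 Flag peaks, with 62.2% of the HA bases and 79.1% of the Flag bases listed in the window. All 4 distal HA peaks were shared, against 3 of the 5 HA peaks nearer the gene. Among Flag peaks the order was the other way, with 4 of 6 distal peaks and 3 of 3 nearer peaks shared. Over the whole lists 73.3% of HA peaks and 54.7% of Flag peaks were shared. Each part held few peaks, and the difference between distal and nearer peaks was not tested.

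The distal sites began with a Flag peak that the HA list lacked, chr3:34633760-34634339, 580 bp wide and about 85 kb downstream. About 95 kb downstream, the HA peak chr3:34644043-34644534 (492 bp) lay wholly inside the Flag peak chr3:34643995-34644544 (550 bp). Their centres were 19 bp apart.

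The widest site stood about 107 kb downstream, where the distal control region is placed. Its HA peak, chr3:34654915-34656312, was 1398 bp wide, the widest of the 181 HA peaks on chromosome 3 and rank 54 of 3406 in the whole list. Its Flag peak, chr3:34654958-34656528, was 1571 bp wide, second of the 216 Flag peaks on the chromosome and rank 53 of 4569. The lists had 1355 bp of it in common, and its centres were the farthest apart of the 7 pairs, at 129.5 bp. The Flag peak reached farther toward the next site.

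That next site, about 108 kb downstream, followed almost without a break. The HA peak chr3:34656554-34657444 was 891 bp wide and began 241 bp after the previous HA peak. The Flag peak chr3:34656619-34657353 was 735 bp wide, lay wholly inside the HA peak and began 90 bp after the previous Flag peak. Merged over both lists, these sites were separated by 25 bp.

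The last site, about 111 kb downstream, was the most closely matched of the 7 pairs. The HA peak chr3:34659903-34660684 (782 bp) lay inside the Flag peak chr3:34659867-34660715 (849 bp), and their centres were 2.5 bp apart. A further Flag peak, chr3:34659173-34659704 (532 bp), stood 162 bp before that Flag peak and 198 bp before the HA peak. It counted as unshared only because it did not reach the HA peak.

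**Figure D2:**
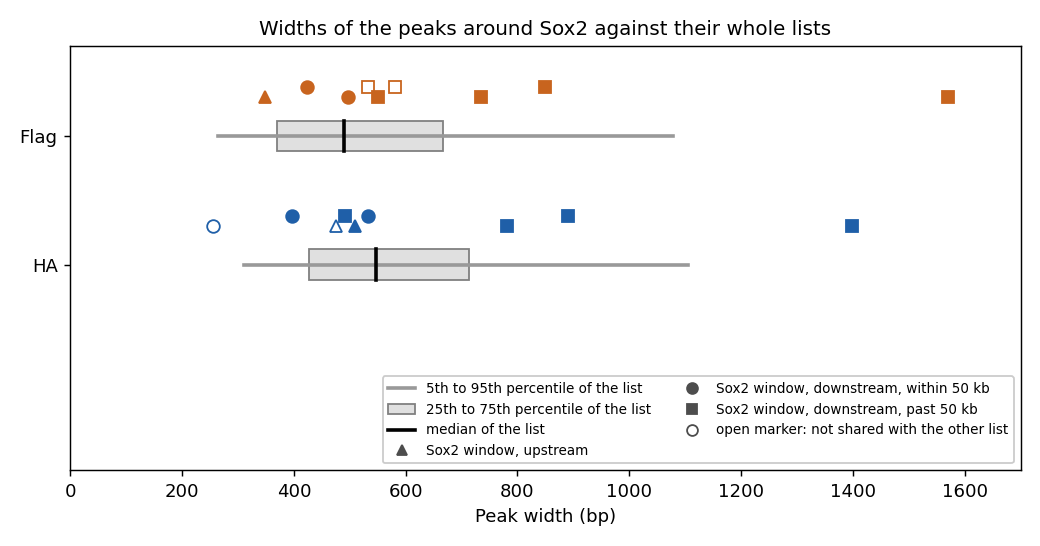
Width in bp of each peak around Sox2 (markers, by place relative to the gene; open where not shared) beside the median, the middle 50% and the 5th to 95th percentile of its whole list. The distal peaks of 1398 bp (HA) and 1571 bp (Flag) lie beyond the 95th percentile of their lists, while the peaks nearer the gene lie between 255 and 532 bp. Other distal peaks, about 85, 95 and 110 kb downstream, are also narrow, between 492 and 580 bp.

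The widest peaks around Sox2, in either list, were those of the 3 shared sites between 107 and 111 kb. The median over the 9 HA peaks was 509 bp, against 547 bp for all HA peaks, and 3 of the 9 were above that list median. For Flag the medians were 550 bp around Sox2 and 490 bp over the list, with 7 of 9 above it. The 3 HA peaks above the list median were those at about 107, 108 and 111 kb, each of them shared. Their widths ranked in the top 1.59%, 12.1% and 18.6% of the HA list. The Flag peaks of the same sites ranked in the top 1.16%, 19.3% and 12% of theirs.

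The antibodies placed the 7 shared sites at nearly the same positions, which the overlap that defines a shared site favours in itself. Centres were a median of 65.5 bp apart (2.5 to 129.5 bp), and 5 of the 7 pairs had centres within 100 bp. Over all 2474 pairs that matched 1 to 1, the median was 50.5 bp and 76.3% were within 100 bp. The common stretch made up a median of 82.5% of the length covered by either peak of the pair, against 76.4% over all such pairs. The Flag centre lay upstream of the HA centre in 4 pairs and downstream in 3. In 4 pairs the Flag peak was wider than its HA partner, and in 3 it was narrower. The 7 pairs therefore had no common direction of shift or of width difference between the antibodies, and neither did all 2474 pairs. Over those, the Flag centre lay upstream in 1219 and downstream in 1250. The Flag peak was wider in 1200 of them and narrower in 1269.

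**Figure D3:**
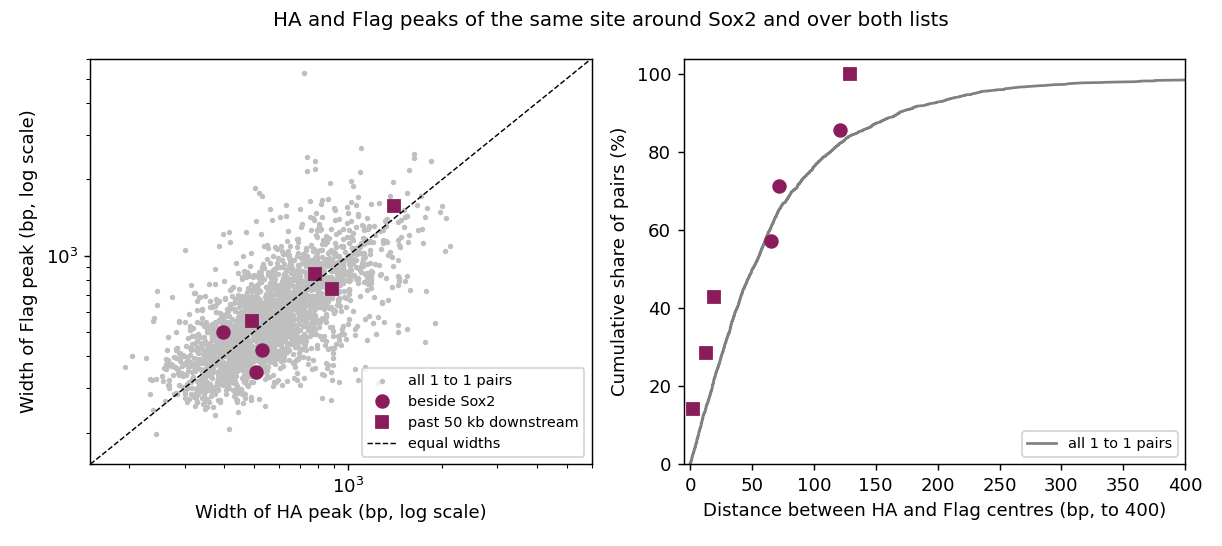
Left, width in bp of the Flag peak against the HA peak for the 7 pairs around Sox2 (coloured) and all 2474 pairs (grey), both axes logarithmic; right, cumulative share of pairs (%) by distance between centres in bp. The 7 pairs lie within the cloud of all pairs, with the pair of 1398 and 1571 bp toward its upper end, and their centre distances of 2.5 to 129.5 bp follow the curve of all pairs.

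Few places held as many peaks as this window. On a grid of 200 kb windows that includes it, 19.2% of 13107 windows held any HA peak and 24.2% any Flag peak. Windows with 9 or more peaks were 2 in each list, the Sox2 window included, or 0.0153% of windows. The other HA window with 9 peaks was at 2.9 to 3.1 Mb of chromosome 11, which held 7 Flag peaks, and the other Flag window with 9 was at 65.1 to 65.3 Mb of chromosome 14, which held 5 HA peaks. The grid was laid to fit the Sox2 window, and fixed edges can split other clusters. With windows free to start at any peak, a count chosen after the data were seen, 3 places per list reached 9 or more peaks. For HA the other places were at 3.07 to 3.24 Mb of chromosome 11 and 76.86 to 77.06 Mb of chromosome 14, and each held up to 10 HA peaks in such a window, more than the 9 around Sox2. For Flag they were at 65.17 to 65.28 Mb of chromosome 14 and 122.56 to 122.76 Mb of chromosome 6, each with up to 9 peaks. Sox2 was the one place on both of these lists, but the cut of 9 was its own count in each. Counted over their whole merged stretches, the other HA places held 6 (chromosome 11) and 7 (chromosome 14) Flag peaks. The other Flag places held 5 (chromosome 14) and 7 (chromosome 6) HA peaks, and the chromosome 6 stretch held 10 Flag peaks.

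**Figure D4:**
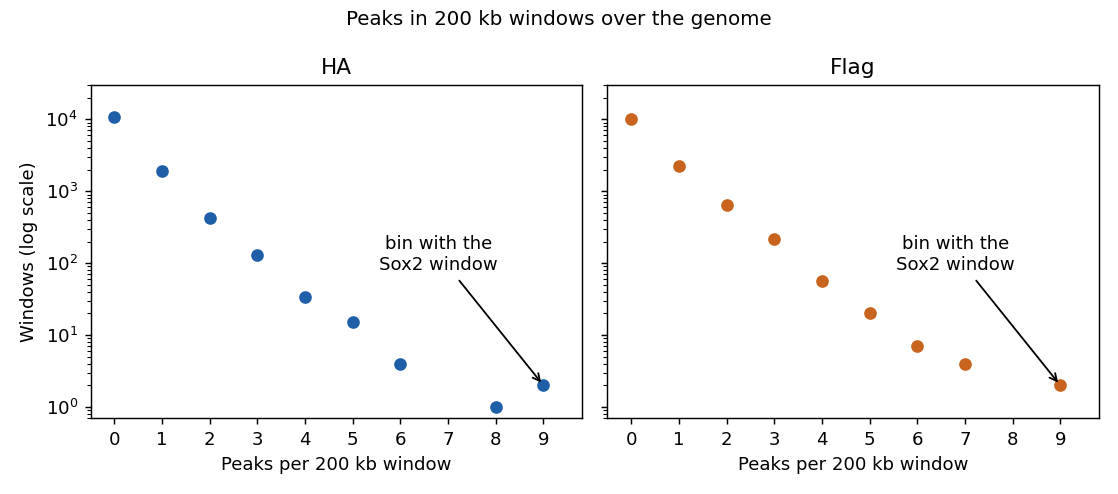
Number of 200 kb windows of the genome (log scale) by the number of HA peaks (left) or Flag peaks (right) they hold; counts with no window are not drawn. Windows become rarer with each added peak up to 7 peaks, few or none hold 7 or 8, and the Sox2 window is 1 of 2 with 9 peaks in each panel.

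On either side of this cluster, the nearest listed peak of the same list lay 372 kb or more away. The nearest HA peak below the window was chr3:33934639-33935097, 610 kb before the first HA peak inside it. The nearest above was chr3:35032430-35032930, 372 kb past the last. The corresponding Flag peaks were chr3:33904388-33904905, 640 kb below, and chr3:35032490-35032895, 372 kb above. Between these outer peaks, the 9 HA peaks were thus the only ones in 1.10 Mb and the 9 Flag peaks the only ones in 1.13 Mb. The median gap between neighbouring peaks was 7.84 kb for HA and 8.40 kb for Flag inside the cluster, against 306 kb and 219 kb over the whole lists. This difference was fixed by the choice of members, since 9 peaks inside 1 window of 200 kb must have short gaps. The gaps flanking the cluster were above these list medians, but how many gaps in the lists are as long was not counted. Edges of the window were not close to any peak, since the first and last members lay 45.0 kb (HA) or 45.2 kb (Flag) and 39.3 kb inside it.

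Linking peaks of a list that lay less than 12.5 kb apart put the distal sites into 1 group per list. The HA group joined the 4 distal peaks over 16.6 kb and covered 3563 bp, or 21.4% of its span. Among the 34 HA groups of 3 or more peaks, 3 had more peaks and 8 had as many, and its covered length ranked 7. The Flag group joined all 6 distal peaks over 27.0 kb and covered 4817 bp, or 17.9% of its span. The median share of the span covered was 17.1% over the HA groups and 19.5% over the Flag groups, so the HA group was above its median and the Flag group below. Only 1 of the 48 Flag groups had more peaks, 1 had as many, and its covered length ranked 4. The median group covered 2287.5 bp in HA and 2446 bp in Flag.

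All 4 peaks of the distal HA group were shared with Flag, where 73.3% of all HA peaks were. In the distal Flag group 4 of the 6 peaks were shared with HA, where 54.7% of all Flag peaks were. Wholly shared HA groups numbered 16 of the 34 with 3 or more peaks and 3 of the 12 with 4 or more, the Sox2 distal group among them. The HA peaks about 4 and 2 kb upstream and 4 kb downstream of Sox2 formed a second, smaller group of 3 over 8.16 kb, with 2 of 3 shared. Some peaks of the largest groups were not shared either. The fullest of each list, on chromosome 11, had 4 of 9 HA peaks and 4 of 7 Flag peaks shared. The next, on chromosome 7, had 4 of 5 HA and, as in the distal Sox2 group, 4 of 6 Flag peaks shared, and an equally large HA group on chromosome 8 had 4 of 5.

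The order of lines in the lists, whose meaning they do not state, did not follow peak width around Sox2. The HA peak about 95 kb downstream, of 492 bp, stood earliest, at line 222 of 3406, and its Flag partner was also the earliest Flag peak of the window, at line 695 of 4569. Next in both lists came the site about 108 kb downstream, at lines 656 and 731, and then the site about 4 kb downstream, at lines 1282 and 1058. The widest HA peak stood near the end, at line 3165, while its Flag partner of 1571 bp was at line 1845. The upstream pair was similarly placed, at HA line 3091 and Flag line 1672. The unshared HA peak closest to Sox2 was near the very end of its list, at line 3393.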

How the data were processed

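Foxd3 binding was measured by chromatin immunoprecipitation and sequencing in 1 HA and 1 Flag library. The authors deposited 1 peak list per antibody, holding 3 columns, chromosome, start and end, with no other value, so no fold, score, p-value or depth could be used. Per the submitters' processing notes, coordinates are in mm9. How reads were aligned, which caller and threshold made the peaks, and how the input was used is not given in the sources used. Starts were converted to 1-based positions. Peaks overlapping by at least 1 bp were called shared, checked against bedtools 2.31.1. All peaks in the window are named. Computations ran in Python 3.11.15 with scipy 1.17.1, numpy 2.4.6 and matplotlib 3.10.9, and the overlap and linking steps were tested on simulated data. The members, window and letter patterns were chosen with earlier results of these data known. Alternatives varied the overlap, the linking distance, the window and the peaks kept. Planned as descriptions, none of the comparisons carries a p-value. The gene order and promoter sequence come from RefSeq tables on GRCm38.p6, and no coordinate was moved between builds.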

Additional observations from a re-analysis of the deposited data

How the results depend on the processing

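Of 23 values under an alternative, 20 stayed within 1.5 times the count reported or, for widths and centre distances, did not move. The 4 values from a window of 400 kb, among those 20, could not change, since the nearest outside peaks lay 332 to 595 kb beyond the edges of the 200 kb window. Keeping only the wider 50% of each list moved the other 3: 3 HA peaks remained around Sox2 in place of 9, and 3 HA and 3 Flag peaks were shared in place of 7 and 7. Fewer peaks are left there by construction. Requiring 50% of each peak, or each centre inside the other peak, left 7 shared peaks in each list, and a gap of up to 1 kb raised the Flag count to 8. Linking at 5 kb gave distal groups of 3 HA and 4 Flag peaks, and at 20 kb of 4 and 6. The window of 400 kb for widths and the windows free to start at any peak were chosen after seeing the data. No paired analysis was possible because HA and Flag are represented by 1 library each, and no replicate could be left out. Without read depths, signal under the authors' threshold has no upper limit here.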
